A study of Mus musculus with 8 samples.

Results

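Cd101 (ENSMUSG00000086564.9) is 1 of the 55335 genes in the count table and 1 of the 15378 with enough reads to test. It was selected on the contrast examined here, as the gene whose rise in LSD1-deficient cells had the smallest p-value, so its own fold change and its separation between groups are given as a description with no test. The counts come from bulk RNA-seq of CD8+ T cells that had infiltrated MC38 tumors, a mouse colon carcinoma line implanted in C57BL/6 mice. In the wildtype (WT) group each of the 4 samples combined cells from 2 Lsd1f/f mice, which carry floxed Lsd1 alleles and no Cre. In the knockout (KO) group each of the 4 samples came from 1 Cd4-Cre+Lsd1f/f mouse. Cd4-Cre is active in developing thymocytes before the CD4 and CD8 lineages part, so it targets both lineages, although the study found LSD1 protein still present at the double-positive stage of these mice. The protocol places the harvest at day 18 and the design text at 14 days. Each library was made from 10000 to 20000 T cells (CD45.2+TCRβ+) sorted as CD8+, CD44+ and PD-1+, that is, activated cells bearing the PD-1 receptor. Samples S1 to S4 are WT and S5 to S8 are KO. In bulk libraries, fewer cells of a type and less RNA per cell cannot be told apart.

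CD101 is a transmembrane glycoprotein of the immunoglobulin superfamily and belongs to the small EWI family, named after a shared Glu-Trp-Ile motif, with PTGFRN, IGSF8 and IGSF3. On T cells its engagement dampens T cell receptor signaling through PLCγ1 and NFAT and lowers IL-2 production. In chronic infection and tumors, CD101 together with TIM-3 marks terminally exhausted CD8+ T cells, whereas CX3CR1 marks a transitory population and TCF1 and Slamf6 mark the progenitors. It is also found on macrophages, neutrophils, dendritic cells, regulatory T cells and tissue-resident memory T cells.

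On the GRCm38 build Cd101 lies on the minus strand of chromosome 3, from 100993529 to 101029556, a span of 36028 bases with 10 exons after merging transcripts and 3330 exonic bases. It overlapped 0 other annotated genes, so its exons were not shared with another gene model. Whether any RNA over them began in a neighboring gene was not tested. The next gene before its start is Ptgfrn, on the same strand, whose end lies 10.675 kb away. The sequence directly before each start site is shown because both genes were higher in KO cells while their promoters have little in common in composition. Both come from RefSeq (GRCm38.p6, minus strand, read 5′ to 3′) and stop before the first annotated transcribed base. Capitals mark CTTTG or its reverse complement CAAAG, the core of the site bound by the progenitor transcription factor TCF1. In a transfected cell line, the study examined the physical interaction of TCF1 with LSD1 and measured TCF1 reporter activity with LSD1 raised or lowered. It also reported higher Slamf6 on activated splenic CD8+ T cells when LSD1 was inhibited or deleted. Its TCF1 binding sites came from published data on splenic CD8+ T cells.
Cd101, chr3:101029557-101029803: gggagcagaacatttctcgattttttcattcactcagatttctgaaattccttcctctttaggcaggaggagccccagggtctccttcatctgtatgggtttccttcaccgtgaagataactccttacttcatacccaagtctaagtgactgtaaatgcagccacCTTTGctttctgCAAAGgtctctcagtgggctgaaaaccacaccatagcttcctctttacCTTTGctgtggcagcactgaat
Ptgfrn, chr3:101110279-101110416: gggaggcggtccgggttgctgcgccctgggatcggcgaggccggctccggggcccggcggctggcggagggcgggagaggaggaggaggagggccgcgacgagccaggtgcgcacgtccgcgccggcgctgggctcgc
In the full windows of 300 bases, from 250 before to 50 after the RefSeq start, Cd101 held 4 CpG dinucleotides and a GC content of 47.0%. Ptgfrn held 44 CpG and a GC content of 80.0%, and 97.8% of the 32851 RefSeq promoter windows had fewer CpG than Ptgfrn. The Cd101 window thus lay below the median window (7 CpG and 52.7% GC) and the Ptgfrn window near the top of the range. The core occurred 3 times in the Cd101 window and 0 times in the Ptgfrn window, against at least 1 occurrence in 53.9% of all windows. The longer forms, the core followed by AA, AT, TA or TT and searched on both strands, occurred 0 times in either window and in 16.9% of all windows. These matches describe letters only, and binding was not measured in these samples.

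The libraries held 11657807 to 30295406 counts. Kdm1a, which encodes LSD1, was at 44.6, 47.2, 42.7 and 44.9 CPM (counts scaled to a common library total with TMM factors) in WT and at 25.2, 30.5, 32.0 and 34.8 CPM in KO. The groups did not overlap, but the log2 fold change of -0.55 (SE 0.14, adjusted p = 0.0163, edgeR quasi-likelihood test) missed the threshold used throughout, an adjusted p below 0.01 with a fold change above 1.5. A whole-gene count does not separate the floxed exons from the remaining transcript. The sorted-cell markers (Cd8a, Cd8b1, Cd3e, Cd44, Pdcd1, Ptprc, Trac and Trbc2) summed to 5292 to 5784 CPM in WT and 5118 to 5612 CPM in KO, overlapping ranges. Of these 8 only Cd44, one of the sort markers, was called, with a log2 fold change of 0.86.

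Cd101 received 603, 672, 451 and 400 counts in the WT samples S1 to S4 and 2866, 2439, 2364 and 4985 counts in the KO samples S5 to S8. After scaling, these were 35.0, 36.6, 36.8 and 33.0 CPM in WT and 188, 197, 197 and 175 CPM in KO. Every KO sample stood far above every WT sample, and within each group the samples lay close together. The WT mean was 35.4 ± 1.77 CPM (SD, n = 4) and the KO mean 189 ± 10.4 CPM (SD, n = 4). The ratio of the means was 5.36, and the lowest KO sample stood 4.76 times above the highest WT sample. The fitted log2 fold change was 2.42 (SE 0.10), and in 16 alternative fits, including those that each left out 1 sample, it ranged from 2.39 to 2.46. Per kilobase of exon, Cd101 went from 10.6 ± 0.530 to 56.9 ± 3.11 RPKM. This moved it from rank 3394 to rank 454 among the 11649 protein-coding genes tested, ordered from the highest RPKM.

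**Figure D1:**
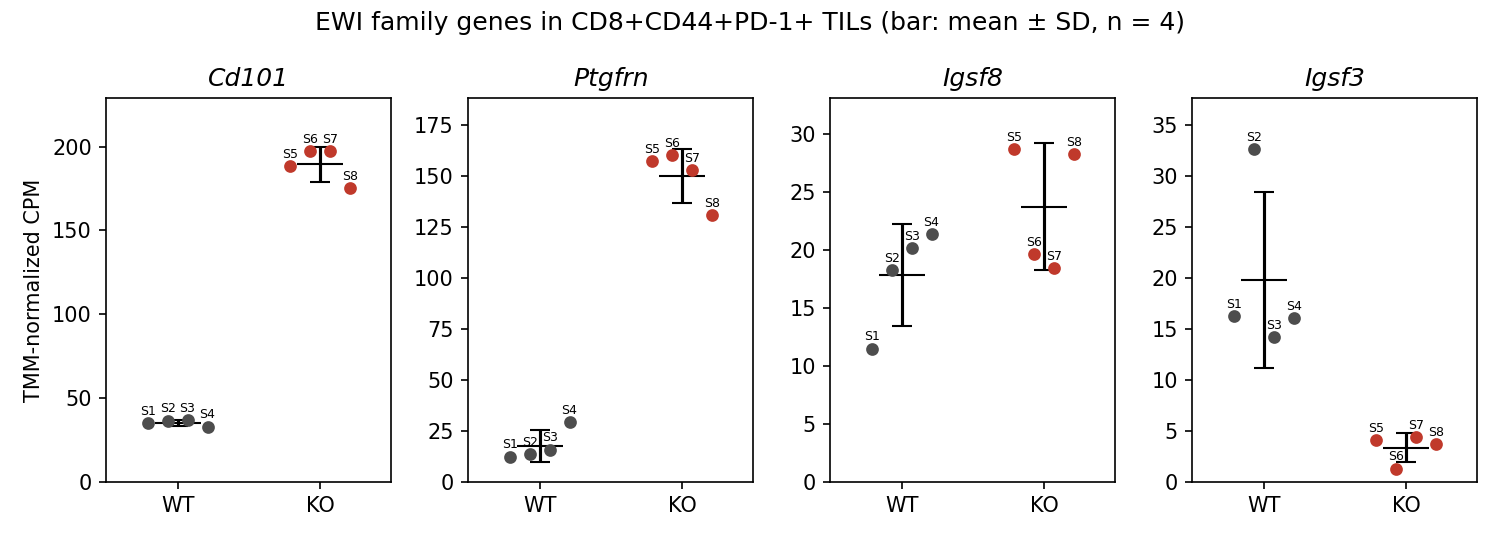
TMM-normalized CPM (vertical axes, each from 0) of the 4 EWI family genes in the 4 WT samples (S1 to S4) and 4 KO samples (S5 to S8), with mean ± SD as bars. Cd101 sits at 33.0 to 36.8 CPM in WT and 175 to 197 CPM in KO. Ptgfrn rises with it, Igsf8 overlaps between groups and Igsf3 falls.

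What sets Cd101 apart in this table is less the size of its difference than the small spread between samples. Its highest WT sample was 1.12 times its lowest, and its highest KO sample 1.13 times its lowest. The coefficient of variation was 4.99% in WT, where counting error alone gives 4.43%, and 5.46% in KO, where counting error gives 1.86%. Among the WT samples the 95% Poisson intervals all overlapped, since the lowest upper bound (S4, 36.4 CPM) lay above the highest lower bound (S2, 33.9 CPM). In KO cells S5, S6 and S7 overlapped, while the interval of S8 (170 to 180.3 CPM) ended below that of S5 (181 to 195 CPM). PCR copies of 1 molecule are counted separately, so the intervals hold for counting alone. S8 also had the deepest library and the highest Kdm1a level of the KO samples, and the part of either in its lower Cd101 value was not tested.

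The pooled SD of Cd101 within groups was 0.0765 on the log2 CPM scale, against a median of 0.334 over all tested genes, and 191 genes (1.24%) had a smaller one. Dividing the difference between groups by this SD gave 31.6, rank 3 by size over all tested genes. The rank was 5 without S1 or S4 and 6 without S3. Ahead of it were Rusc2, with 19 to 31 counts in WT and 0 in each KO sample, and the noncoding 4933422A05Rik, with 0 counts in each WT sample and 10 to 24 in KO, both named here after their values were seen. Samples with 0 counts share 1 value on this scale, so for these genes only 1 group added spread to the pooled SD. By log2 fold change alone Cd101 was 80th of the 447 genes called higher. The genes that followed it in the order of the smallest p-value had larger folds and wider spreads. Anxa1, the phospholipid-binding annexin A1, went from 4.09 ± 0.444 to 74.0 ± 14.9 CPM with a pooled SD of 0.22 log2 units. Arhgef11, Stac2, Nsg2 and Gcnt1 came next, with log2 fold changes of 3.36, 5.06, 2.79 and 2.53 and pooled SDs of 0.23, 0.39, 0.22 and 0.25. Cd101 had 400 to 672 counts in the WT samples, against 13 to 28 for Stac2 and 826 to 968 for Gcnt1. Fewer counts bring more counting error, and its part in these spreads was not tested. These ranks are part of how Cd101 was chosen and carry no test.

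**Figure D2:**
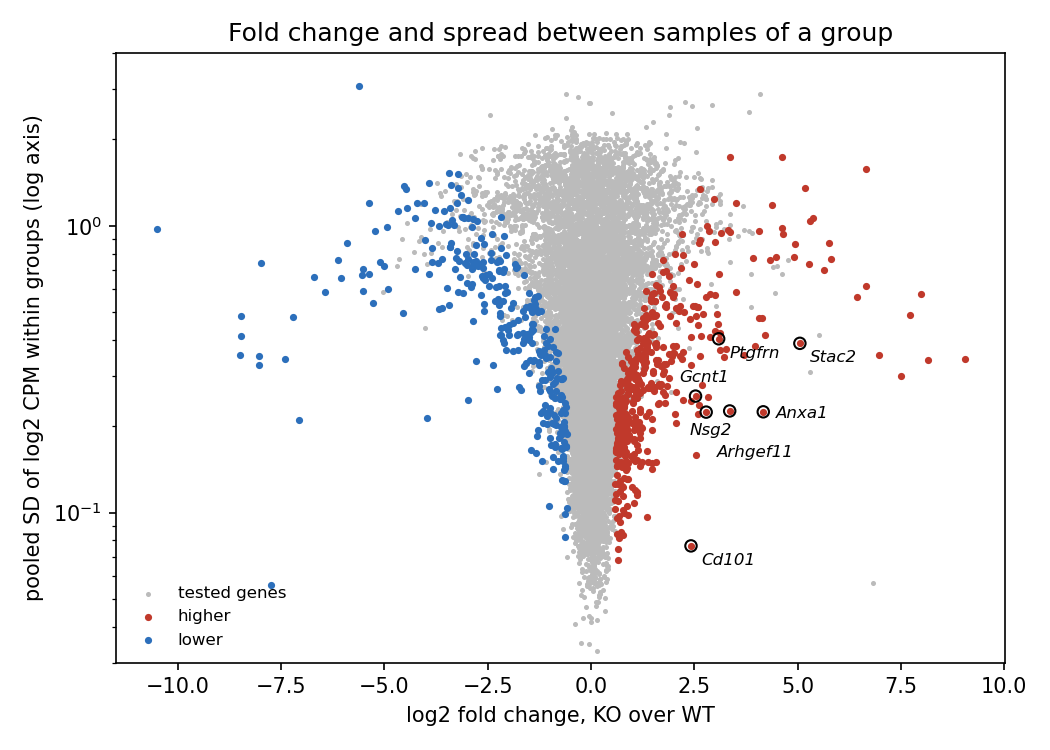
Log2 fold change of KO over WT (horizontal) against the pooled SD of log2 CPM within groups (vertical, log axis) for the tested genes, with called genes in color. Cd101, at 2.42 and 0.0765, lies below the other labelled genes, whose SDs are 0.22 or more.

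The EWI family did not move as 1 unit. Ptgfrn, whose product is a negative regulator of prostaglandin F2α receptor binding and a partner of the tetraspanins CD9 and CD81, was at 12.4, 13.5, 15.8 and 29.3 CPM in WT and at 157, 160, 153 and 131 CPM in KO. All KO samples were above all WT samples, and S4 was the highest WT sample by a wide margin. Its log2 fold change was 3.09 (SE 0.21, adjusted p = 7.68e-08, edgeR), and it was called in all 18 alternatives, with a value of 3.43 without S4. Per kilobase of exon Ptgfrn remained below Cd101 in both groups, at 1.70 ± 0.746 RPKM in WT and 14.3 ± 1.26 RPKM in KO.

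The ratio of Cd101 to Ptgfrn in CPM was 2.82, 2.71, 2.32 and 1.13 in the WT samples and 1.20, 1.23, 1.29 and 1.34 in the KO samples. In 3 of the 4 WT samples the ratio thus stood above all KO samples, whereas S4 had a ratio below them. Cd101 in S4 was the lowest of the WT samples, so the higher Ptgfrn level there was not shared by Cd101.

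Igsf3 was at 16.3, 32.7, 14.2 and 16.1 CPM in WT and at 4.07, 1.29, 4.42 and 3.69 CPM in KO. It moved opposite to Cd101, with every KO sample below every WT sample and a log2 fold change of -2.55 (SE 0.35, adjusted p = 1.30e-04, edgeR). The call held in all 18 alternatives (-2.69 to -2.20). Igsf8, the gene of the CD81 and CD9 partner EWI-2, was at 11.5, 18.3, 20.2 and 21.4 CPM in WT and at 28.7, 19.6, 18.4 and 28.2 CPM in KO. The groups overlapped, and its log2 fold change of 0.42 (SE 0.22, adjusted p = 0.255) was not called. Of the 7 tetraspanin genes listed as possible partners of this family (Cd9, Cd37, Cd53, Cd63, Cd81, Cd82 and Cd151), 0 were called by edgeR or by DESeq2. At an unadjusted p below 0.05, 4 of the 7 were lower in KO and 0 higher, where 12.1% of all tested genes were lower and 12.4% higher. Without the low-count filter Cd63 and Cd81 were called lower, and Cd63 also without S6. The extremes were Cd63 (4.44 ± 1.95 to 0.401 ± 0.757 CPM, adjusted p = 0.0318), Cd81 (log2 fold change -0.99, adjusted p = 0.192), Cd82 (0.12, adjusted p = 0.568) and Cd151 (0.26, adjusted p = 0.563).

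The position of Cd101 was not used to choose it. Within 1 Mb the annotation holds 45 other genes of the table, of which 21 were tested and 11 of those code for protein. 3 of the 21 were called higher, 1 was called lower and 17 were not called. Over all tested genes, 2.91% were called higher and 1.99% lower. The median log2 fold change of the 21 was 0.06, against -0.01 for all tested genes.

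The called genes lay on 1 side of Cd101, before its start. Nearest was Ptgfrn. Next among the called genes was Cd2, which encodes the T cell adhesion receptor for CD48, at a distance of 246.342 kb. Cd2 was at 147, 150, 137 and 145 CPM in WT and at 225, 265, 289.6 and 226 CPM in KO, without overlap (log2 fold change 0.80, SE 0.10, adjusted p = 6.73e-05, edgeR), and was not called by glmTreat, which tests for a fold change above 1.5 itself (adjusted p = 0.158). Igsf3 followed at 347.526 kb. The intronic transcript Gm42937, at 550.747 kb, went from 2.02 ± 0.394 to 6.89 ± 1.91 CPM (log2 fold change 1.77, SE 0.38, adjusted p = 0.00569), and its call was lost without S1, S2, S4, S6 or S7 (adjusted p 0.0131 to 0.0332) and with glmTreat. Reads of an intronic model may include unspliced RNA.

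Genes between and beyond these did not pass the test. Ttf2, a transcription termination factor and the nearest gene past the end of Cd101 at 23.865 kb, had a log2 fold change of -0.17 (SE 0.14, adjusted p = 0.521). Trim45, at 56.608 kb, was at 4.15 ± 1.15 CPM in WT and 2.29 ± 0.958 CPM in KO (adjusted p = 0.286). Further out on that side, the log2 fold changes were 0.06 for Man1a2, 0.16 for Tent5c, 0.39 for Gdap2 and 0.03 for Wdr3 (adjusted p from 0.161 to 0.940). On the Ptgfrn side Slc22a15 had 0.78 (adjusted p = 0.0407, called without the low-count filter). The 7 intronic, 1 lincRNA and 1 pseudogene models that were tested and not called (Gm43462, Gm43463, Gm43465, Gm43466, Gm42868, Gm42869, Gm42941, Gm12474 and Gm43467) had log2 fold changes from -1.05 to 2.06.

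**Figure D3:**
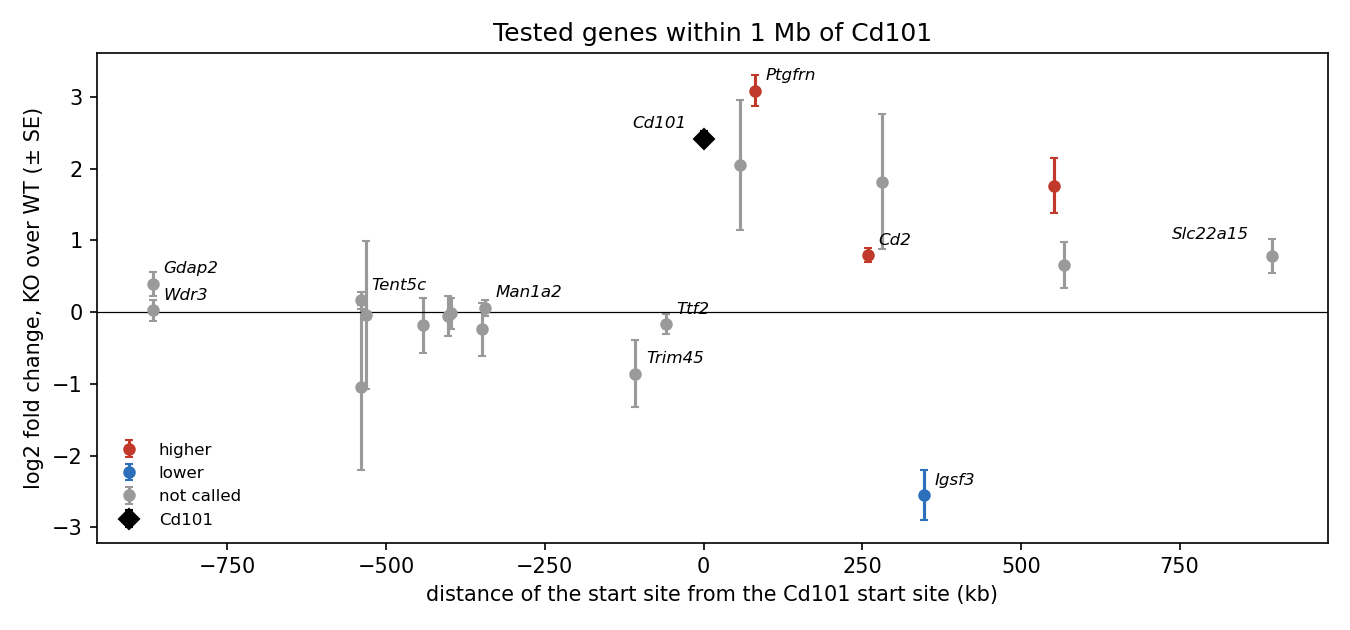
Log2 fold change of KO over WT ± SE (vertical) for tested genes within 1 Mb of Cd101 against the distance of each start site from that of Cd101 in kb (horizontal, positive before the start of Cd101), with protein-coding genes labelled. Ptgfrn (3.09), Cd2 (0.80) and Gm42937 (1.77, without a label) were called higher and Igsf3 (-2.55) lower, all on the same side.

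CD101 is used as a surface marker of terminal exhaustion, so its transcript was set beside those of 9 receptors and ectoenzymes of that state. Of the 9, 2 were called higher, 1 lower and 6 were not called, against 2.91% higher and 1.99% lower over all tested genes. Their median log2 fold change was -0.07, against -0.01 for all tested genes. Havcr2, which encodes TIM-3, the marker used together with CD101, was at 170, 162, 153 and 222 CPM in WT and at 374, 407, 439 and 274 CPM in KO. The groups did not overlap (log2 fold change 1.08, SE 0.14, adjusted p = 8.57e-05, edgeR), against 2.42 for Cd101. Ctla4, an inhibitory receptor for CD80 and CD86, was at 275, 267, 273 and 309 CPM in WT and at 404, 508, 614 and 419 CPM in KO (log2 fold change 0.79, SE 0.12, adjusted p = 3.54e-04). The glmTreat test did not call Havcr2 (adjusted p = 0.0139) or Ctla4 (adjusted p = 0.263).

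Cd244a, the gene of the SLAM family receptor 2B4, went the other way, at 19.5, 27.3, 34.8 and 19.4 CPM in WT and at 15.8, 7.35, 7.26 and 5.91 CPM in KO. Its log2 fold change was -1.48 (SE 0.29, adjusted p = 0.00294), and the call was lost without S2, S3, S6 or S7 (adjusted p 0.0125 to 0.0152) and with glmTreat (adjusted p = 0.0316). The other 6 were Pdcd1, which encodes PD-1 and was part of the sort (log2 fold change -0.33, adjusted p = 0.239), Entpd1, which encodes CD39 (-0.07, adjusted p = 0.791), Cd38 (-0.24, adjusted p = 0.474), Lag3 (0.28, adjusted p = 0.171), Tigit (0.57, adjusted p = 0.0102) and Cd160 (-0.67, adjusted p = 0.0156). Tigit and Cd160 lay just outside the threshold, on opposite sides of 0. Cd160 was called lower with DESeq2 (adjusted p = 0.00413) and without the low-count filter, and Tigit higher with GC content offsets (adjusted p = 0.00736) and without S4 or S8.

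Ordered by RPKM among these 10 genes, Cd101 was 8th in WT cells and 6th in KO cells. In WT it lay between Cd160 (12.3 ± 1.88 RPKM) and Cd38 (8.52 ± 0.577 RPKM), and its 10.6 ± 0.530 RPKM was within the SD of Cd160. In KO it lay between Tigit (116 ± 19.3 RPKM) and Entpd1 (21.3 ± 3.16 RPKM), farther from either than their SDs. Pdcd1 was first in both groups, at 316 ± 48.6 and 252 ± 69.9 RPKM.

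The remaining lists cover the transcription factors, progenitor and effector genes of the exhausted lineage, tissue residency and T cell receptor signaling. Over all 73 listed genes other than Cd101, each of them tested, 10 were called higher (13.7%) and 4 lower (5.48%), where 2.91% and 1.99% of all tested genes were. The lists were written with earlier results of these data known, so the larger shares are a description and carry no test. Among the 10 exhaustion transcription factors, Irf4, a factor induced by T cell receptor signaling, was called higher (189 ± 26.4 to 389 ± 42.8 CPM, log2 fold change 1.04, adjusted p = 1.21e-05). Tox, a central factor of the exhausted state, was called lower (96.6 ± 17.6 to 43.0 ± 4.62 CPM, log2 fold change -1.17, adjusted p = 3.30e-05). Tox2 was at 0.378 ± 0.477 CPM in WT and 4.80 ± 1.03 CPM in KO (adjusted p = 0.0107) and Eomes had a log2 fold change of -0.86 (adjusted p = 0.0477), so neither was called. Tox2 was called with DESeq2 (adjusted p = 2.69e-05), without the low-count filter, after removal of the 10 most counted genes and without S4, and Eomes without the filter and without S8 (adjusted p = 7.08e-04). The remaining 6 of the 8 not called had changes from -0.54 to 0.53. Of these, Nr4a2 and Nr4a3, named after their values were seen, passed the fold threshold when single samples were left out.

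Of the 12 progenitor genes, 4 were called higher, 1 lower and 7 were not called, against 2.91% higher and 1.99% lower over all tested genes. The SLAM receptor gene Slamf6 rose from 39.3 ± 10.9 to 112 ± 14.2 CPM (log2 fold change 1.51, adjusted p = 1.47e-05), and the chemokine gene Xcl1 from 84.7 ± 38.3 to 212 ± 69.7 CPM (log2 fold change 1.33, adjusted p = 0.00329). Il7r, the interleukin-7 receptor gene, and Bcl6, a transcriptional repressor gene, were the other two called higher (log2 fold changes 1.20 and 0.82). The call of Xcl1 was lost with DESeq2 and glmTreat and without S1, S2, S3 or S6 (adjusted p 0.0127 to 0.0167), that of Bcl6 with glmTreat and without S1, S2, S4 or S7 (adjusted p up to 0.0146). The lymph node homing receptor gene Ccr7 fell from 170 ± 23.0 to 90.9 ± 12.7 CPM (log2 fold change -0.90, adjusted p = 1.19e-04; 0.0659 with glmTreat). Cxcr5 was at 3.48 ± 0.918 CPM in WT and 1.64 ± 1.46 CPM in KO (adjusted p = 0.319). Tcf7, which encodes TCF1, had a log2 fold change of -0.54 (adjusted p = 0.0633) and is named here after its value was seen.

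Of the 8 transitory effector genes, 0 were called by edgeR or DESeq2, and 1 was higher at an unadjusted p below 0.05, a level that 12.4% of all tested genes reached in that direction. Without S8, Klf2 was called lower (log2 fold change -1.05, adjusted p = 0.00622), a gene named after its value was seen. Cx3cr1, the marker set against CD101 in the exhausted lineage and named after its value was seen, was at 149 ± 33.4 CPM in WT and 128 ± 14.2 CPM in KO (adjusted p = 0.362). The extremes of this list were Gzma (log2 fold change 0.56, adjusted p = 0.304), S1pr1 (0.43, adjusted p = 0.375), Klrg1 (-0.35, adjusted p = 0.758) and S1pr5, which stayed below 2 CPM in every sample. Among the KO samples S8 had the highest value of Gzma (197 CPM), S1pr1 (124 CPM) and Klrg1 (12.6 CPM). Leaving out single samples gave log2 fold changes of 0.18 to 0.93 for Gzma, -0.07 to 0.61 for S1pr1 and -1.39 to -0.06 for Klrg1.

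Tissue-resident memory T cells also carry CD101. Of the 7 residency genes, 2 were called higher and 0 lower, where 2.91% and 1.99% of all tested genes were. Itgae, which encodes the αE integrin CD103 that binds epithelial E-cadherin, was at 12.8, 8.12, 16.6 and 4.70 CPM in WT and at 79.9, 103, 73.9 and 81.4 CPM in KO. No WT sample came near the KO samples (log2 fold change 3.00, SE 0.27, adjusted p = 1.19e-06, edgeR). Itga1, the gene of the collagen-binding integrin subunit CD49a, was at 82.4, 76.1, 80.8 and 79.9 CPM in WT and at 224, 229, 215 and 168 CPM in KO (log2 fold change 1.39, SE 0.11, adjusted p = 3.83e-07). The residency genes other than these integrins, Cd69, Cxcr6, Zfp683, Rgs1 and Runx3, had log2 fold changes from -0.15 to 0.17 and none was called. Both integrin genes kept their calls in all 18 alternatives.

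Of the 16 genes that lead from the T cell receptor to IL-2, the pathway on which CD101 acts, 0 were called by edgeR or DESeq2. At an unadjusted p below 0.05, 1 was higher and 3 lower, with 12.4% and 12.1% of all tested genes. Plcg1, which encodes the phospholipase PLCγ1, was at 372 ± 24.6 CPM in WT and 431 ± 21.4 CPM in KO (log2 fold change 0.21, adjusted p = 0.150), and Nfatc2 had a log2 fold change of 0.25 (adjusted p = 0.204). At the low end, Cd3g had a log2 fold change of -0.36 (adjusted p = 0.0505). Il2 itself was at 3.85 ± 2.56 CPM in WT and 2.90 ± 2.00 CPM in KO (log2 fold change -0.38, SE 0.59, adjusted p = 0.766).

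**Figure D4:**
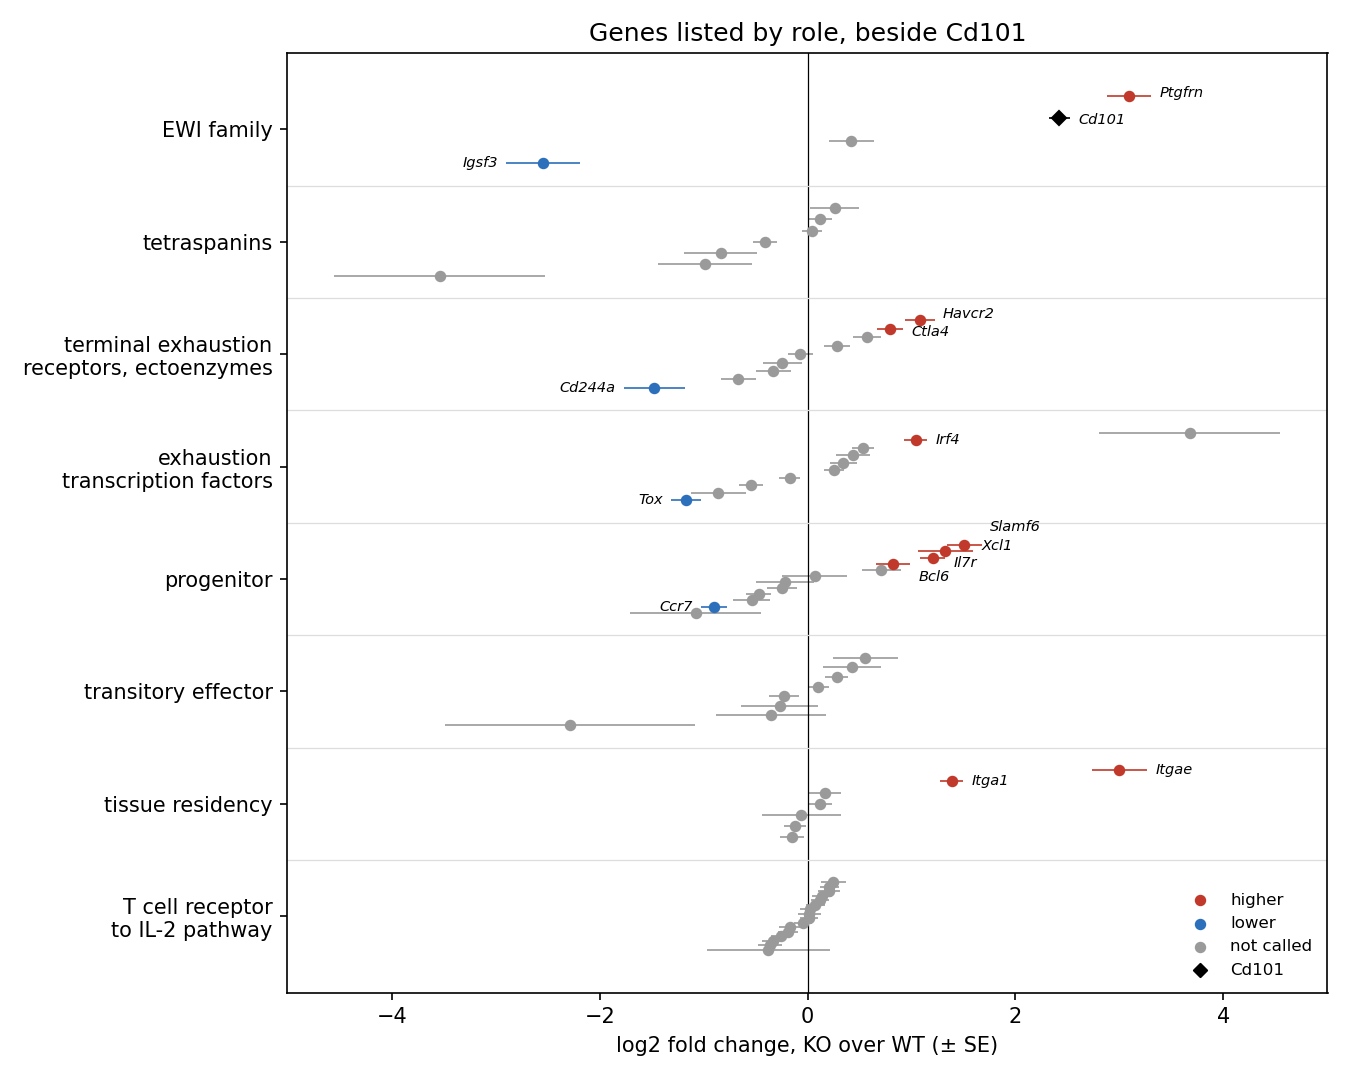
Log2 fold change of KO over WT ± SE (horizontal) for the tested members of each list of genes (rows), with called genes colored and named. Cd101 (black diamond, 2.42) exceeds each called gene other than Ptgfrn (3.09) and Itgae (3.00), while the 16 genes of the T cell receptor to IL-2 pathway lie within -0.38 to 0.25.

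Because CD101 is also made by other leukocytes, markers of those cells were summed in each library. The 13 macrophage and monocyte markers summed to 299, 348, 837 and 393 CPM in WT and to 88.8, 104, 69.4 and 60.7 CPM in KO. The KO samples all lay under the WT samples (exact two-sided permutation test, p = 0.0286, the smallest that 4 against 4 samples allow, 0.143 after Benjamini-Hochberg adjustment over 10 lists). Of the 13 markers, 10 were called lower, against 1.99% of all tested genes. The marker sum moved opposite to Cd101. Within the WT group it spanned 299 to 837 CPM while Cd101 spanned 33.0 to 36.8 CPM, and S3, with the largest macrophage sum, had 36.8 CPM of Cd101 against 36.6 CPM in S2. Igsf3 and Cd244a fell together with the sum. Igsf3 was at 14.2 CPM in S3, its lowest WT value, and Cd244a at 34.8 CPM, its highest. Among the tetraspanin genes with negative log2 fold changes, Cd63 (7.34 CPM) and Cd81 (25.7 CPM) had their highest WT values in S3. Cd9 had its highest WT value in S4 (12.5 CPM) and Cd37 in S2 (116 CPM). The part of macrophages and monocytes in these differences, or in the Cd101 level, was not tested.

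The neutrophil markers reached at most 6.12 CPM in any library, and S100a9, Cxcr2 and Retnlg were at 0 counts in all 8. The dendritic cell markers summed to 272 to 773 CPM in WT and 223 to 299 CPM in KO, overlapping ranges. Of them, Flt3 reached at most 0.545 CPM and Xcr1 at most 2.86 CPM in any sample. H2-Aa, H2-Ab1 and H2-Eb1 were called lower and, like the macrophage and monocyte sum, were highest in S3. Cd74 (log2 fold change -0.26), Itgax (-0.02) and Zbtb46 (-1.09) were not called. The regulatory and CD4 T cell markers (Foxp3, Cd4 and Ikzf4) summed to 29.9 to 46.8 CPM in WT and 42.2 to 73.4 CPM in KO, with Foxp3 at a mean of 1.10 CPM in WT and 2.42 CPM in KO. Cd4 went from a mean of 4.54 CPM to 14.3 CPM without overlap of the groups (log2 fold change 1.65, adjusted p = 0.0161, not called), and Ikzf4 made up most of the sum. The NK cell markers Ncr1 and Klrb1c were above WT in every KO sample but stayed at 2.32 to 6.50 CPM there (exact permutation p = 0.0286, adjusted 0.143). The sums for B cells, γδ T cells, tumor or epithelial cells and fibroblasts overlapped between groups and none exceeded 32.5 CPM. The part of the cells with higher sums in the Cd101 level was not tested.

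**Figure D5:**
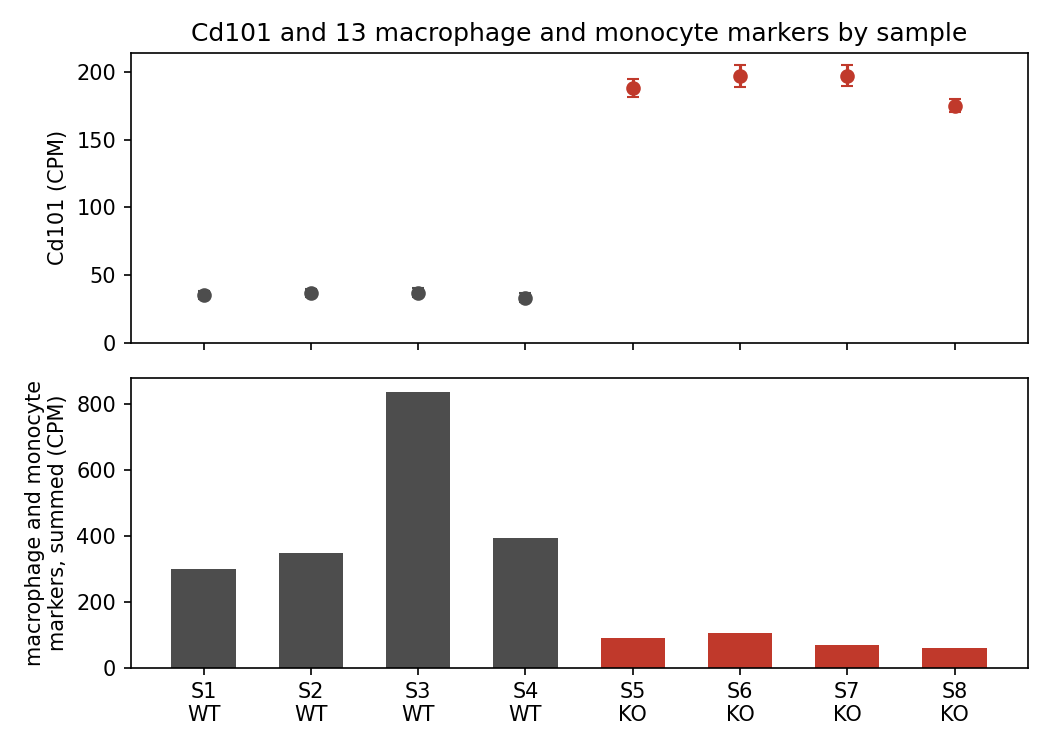
Cd101 in CPM with 95% Poisson intervals (upper panel) and the summed CPM of 13 macrophage and monocyte markers (lower panel) in each WT (gray) and KO (red) sample. The marker sum is lower in KO (60.7 to 104 CPM) than in WT (299 to 837 CPM), while Cd101 is higher. S3 has the largest sum, at a Cd101 level of 36.8 CPM. The part of these cells in the Cd101 level was not tested.

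The genes whose pattern over the 8 samples was most like that of Cd101 were found by the root-mean-square difference of log2 CPM after centering each gene on its own mean, among 10940 genes with a mean log2 CPM above 2. The closest was Cpm, the gene of carboxypeptidase M, a membrane-bound peptidase, with a difference of 0.167 log2 units. It had 12.0 ± 1.60 CPM in WT and 69.4 ± 5.57 CPM in KO. Sestd1 (0.177), the endocytic adaptor gene Pacsin1 (0.194) and Gcnt1 (0.217), which encodes the enzyme that branches core 2 O-glycans, followed. Mcoln2, an endolysosomal cation channel gene, Fam129b and the corepressor gene Tle1 were at 0.255 to 0.258. Lmna, the lamin A/C gene, Zfp516 and the ganglioside synthase gene St8sia1 completed the 10 at 0.270 to 0.288.

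All of these differed in the same direction and by a similar amount, with log2 fold changes from 2.03 to 2.68, as the choice by likeness to Cd101 requires. Gcnt1 was the most abundant of them, at 345 ± 52.4 CPM in KO, while Mcoln2 was at 23.2 ± 4.65 CPM. None of these genes reached the RPKM of Cd101 in WT, and only Gcnt1 did in KO. Gcnt1 was at 10.4 ± 1.92 RPKM in WT and 59.9 ± 9.10 RPKM in KO, and in neither group did it differ from Cd101 beyond its SD. Ptgfrn, despite its place beside Cd101, was not among the 10. Without S1, 5 of the 10 stayed on the list, and in the other alternatives 7 to 10.

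Over all tested genes, 8.99% had every KO sample above every WT sample. Cd101, Ptgfrn and Cd2 belonged to these by the values given above, as did Havcr2, Ctla4, Itgae and Itga1, and Igsf8 did not.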

How the data were processed

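The deposited table holds raw read counts per gene. As the authors describe it, paired reads were aligned with STAR to GRCm38/mm10 with GENCODE annotation and counted with featureCounts. The labels state no strand setting for counting. Libraries were directional and made from ribosomal RNA-depleted total RNA.

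Sample columns were placed in the WT and KO groups from the key of the study's principal component plot, and 4 samples per group entered the fits, with no column of another origin. Genes with too few reads were removed with filterByExpr, and 15378 were tested with edgeR 4.0.16 (R 4.3.3), TMM factors and the quasi-likelihood test, with Benjamini-Hochberg adjustment over all tested genes. A gene was called at an adjusted p below 0.01 and a fold change above 1.5. The authors used DESeq2, which served here (1.42.0) as an alternative. RPKM was computed from TMM-scaled CPM and merged exon length in GENCODE, to which 55154 of the 55335 gene IDs matched. Log2 CPM values, from which spreads and nearest patterns were taken, used a prior count of 2. The log2 fold changes came from the quasi-likelihood fit, without that prior count. Libraries held 11657807 to 30295406 counts, and 3 counts were worth 0.106 to 0.250 CPM. The p-values measure the spread between these samples, pools of 2 mice in WT and single mice in KO, so pooling and genotype cannot be told apart.

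Cd101 and the gene lists were chosen with earlier results of these data known. Named genes were Cd101, its family, Kdm1a, the terminal exhaustion receptors, the 2 highest and 2 lowest members of each other list, tested genes within 1 Mb (1 of them is not reported here), the 10 nearest by pattern and the 5 that follow by p. Other names are said to be chosen after their values were seen, except list members named with their list's count. Fits were tested on simulated counts. Alternatives were RLE, upper-quartile and library-size scaling, no filter, a filter of 1 CPM in 4 samples, removal of the 10 genes with the most counts, GC content offsets (available for 99.9% of tested genes), DESeq2, glmTreat, an adjusted p of 0.05 and leaving out each sample.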

Additional observations from a re-analysis of the deposited data

Results flagged for a closer look

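Of 234 groups of 4 samples examined among the named genes, 16 held 1 sample far from the other 3, by a gap whose share of the group's range on the log2 CPM scale passed Dixon's critical value. Chance flags about 1 in 20 groups, which gives 11.7 here. Cd101 and Ptgfrn were not among them. In the EWI family, Igsf3 was set apart in WT by the high S2 (0.837) and in KO by the low S6 (0.850).

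The other gaps were in Cd37 (0.941, S6 low in KO), Batf (0.935, S6 low in KO), Wdr3 (0.870, S6 low in KO), Lef1 (0.892, S4 low in WT), Cd3g (0.871, S4 high in WT), Zeb2 (0.832, S2 low in WT), Runx3 (0.910, S1 high in WT), Tbx21 (0.898, S5 high in KO) and Cd3e (0.902, S7 high in KO). Among the noncoding neighbors of Cd101, Gm42937 was set apart in WT by the high S3 (0.911) and Gm42868 in KO by S5 (0.835). S1pr5 in KO had a gap of 1 because S8 alone had counts. Zfp516, one of the genes nearest to Cd101 in pattern, was set apart in WT by the high S3 (0.900) and in KO by the low S7 (0.854).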

How the results depend on the processing

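The log2 fold change of Cd101 ranged from 2.39 to 2.46 over 16 alternatives, and its rank by p from 1 to 2 except without the low-count filter, where it was 16. No paired analysis was possible because the columns carry no replicate numbers that match the labels. Of 106 other named genes, 87 kept their call or lack of one in every alternative that gave a value and 19 did not, and 0 called genes changed direction. Scaling alternatives shifted the median gene by -0.02 to 0.01 on the log2 scale.

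With glmTreat against a 1.5-fold change, a stricter question, 165 genes were called higher and 130 lower, 6 listed genes were higher and 2 lower, and 1 gene within 1 Mb of Cd101 (Ptgfrn) was higher. At an adjusted p of 0.05 the counts were 695 and 551, and 7 listed genes were lower. Without the low-count filter 531 genes were called lower, among them 8 listed genes, and DESeq2 called 461 lower. The cause was not tested. Leaving out 1 sample gave 347 to 452 genes higher and 199 to 303 lower, the lowest without S2. It gave 8 to 12 listed genes higher, 3 to 6 lower, and 2 to 3 neighbors higher. At these depths values below about 0.250 CPM can rest on 3 counts or fewer, as in some libraries for S1pr5 and the neutrophil markers. Calls gained in alternatives stand beside the genes concerned, except Lef1, called higher with DESeq2 (adjusted p = 0.00474), without the filter and without S5.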
